A study of Mus musculus with 20 samples.

Results

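Natural killer (NK) cells and activated T cells share a set of surface receptors and the small adaptor proteins that carry their signals. Of the 17101 genes in the table, 10 of these were followed by symbol in T cells of mice with graft-versus-host disease: the receptors Klrd1, Klrc1, Klrc2, Klrk1, Klre1, Klrg1 and Klrb1c, and the adaptors Fcer1g, Tyrobp and Hcst. All 10 passed the filter on low counts in every comparison. RNA was sequenced from donor T cells sorted from the spleens of irradiated female B6D2F1 recipients, aged 8 to 12 weeks, on day 10 after allogeneic transplantation. The donors were C57BL/6 mice of 6 to 12 weeks, either DNMT3a KO (CD4-Cre 2loxP) or WT littermates. Because Cd4-Cre is active at the thymic stage that carries both coreceptors, it deletes Dnmt3a in CD8+ as well as CD4+ cells. There were 4 libraries in each of 5 groups: KO CD8+, KO CD4+ and KO DP (positive for both coreceptors) cells of animals 1 to 4, and WT CD4+ and WT CD8+ cells of animals 2, 3, 5 and 6. None of the RNA libraries was of WT DP cells, so the genotypes could not be compared in DP cells. Here an animal is the number that the library titles share within a genotype. The labels do not say whether a number is 1 recipient or a pool.

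The receptors are lectin-like proteins, most of them encoded side by side in the NK gene complex of chromosome 6. CD94, the Klrd1 product, pairs with the inhibitory NKG2A chain (Klrc1) or the activating NKG2C chain (Klrc2) and reads the nonclassical class I molecule Qa-1. NKG2D (Klrk1) detects stress-induced ligands, KLRG1 binds cadherins and inhibits, and NK1.1 (Klrb1c) activates. Activating receptors have no signalling tail of their own: they borrow FcRγ (Fcer1g) or DAP12 (Tyrobp), whose ITAM motifs recruit the kinases Syk and ZAP70, or DAP10 (Hcst), which recruits phosphoinositide 3-kinase. On CD8+ T cells CD94/NKG2A, NKG2D and KLRG1 are well known from repeated or strong antigen stimulation.

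Klrb1c, Fcer1g and Klre1 were the members that passed the test between KO and WT cells. Since DNMT3A methylates cytosine in CpG, the 250 bases before a transcription start of each are shown, taken from RefSeq on GRCm38.p6, the assembly that mm10 names, with CpG in capitals. The Klrb1c window is chr6:128788642-128788891 on the minus strand, the Fcer1g window chr1:171234350-171234599 on the minus strand and the Klre1 window chr6:129577963-129578212 on the plus strand.
Klrb1c: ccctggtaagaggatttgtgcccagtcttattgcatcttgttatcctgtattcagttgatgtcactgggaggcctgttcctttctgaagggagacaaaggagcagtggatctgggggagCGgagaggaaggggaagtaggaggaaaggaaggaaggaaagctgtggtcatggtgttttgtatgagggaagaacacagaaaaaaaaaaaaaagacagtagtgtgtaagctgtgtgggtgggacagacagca
Fcer1g: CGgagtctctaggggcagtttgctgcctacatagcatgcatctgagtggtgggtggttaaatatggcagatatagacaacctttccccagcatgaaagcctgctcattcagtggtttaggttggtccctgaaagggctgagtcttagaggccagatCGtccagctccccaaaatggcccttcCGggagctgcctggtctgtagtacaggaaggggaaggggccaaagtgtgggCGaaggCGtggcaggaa
Klre1: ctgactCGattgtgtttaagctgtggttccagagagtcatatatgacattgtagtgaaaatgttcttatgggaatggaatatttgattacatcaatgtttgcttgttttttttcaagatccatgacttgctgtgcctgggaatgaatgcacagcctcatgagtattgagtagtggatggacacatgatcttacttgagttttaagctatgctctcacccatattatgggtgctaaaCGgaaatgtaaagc
The Klre1 window lies inside the span of the gene given below, which begins with transcripts that start farther upstream. The Klrb1c window held 1 CpG, the Fcer1g window 5 and this Klre1 window 2, while the window of a second Klre1 start listed just downstream held 1. The median of all 32851 windows was 6. Of the other members, 4 had an entry, with 1 CpG for Klrc1, 2 and 3 for the pair of Klrc2 starts, and 4 each for Klrk1 and Hcst. Klrd1, Klrg1 and Tyrobp had none. The letters TGTGGT, the core bound by RUNX factors, searched on both strands, occurred in the windows of Klrb1c, Klrc1, Klrc2, Klrk1 and the upstream one of Klre1, and in 14% of all windows. The T-box letters GGTGTGA, found in 3.33% of all windows, were in none of the members' windows. These matches describe the sequence only, and methylation was not analysed here.

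The genes lie as follows on GRCm38.p6, each span covering exons, introns and UTRs. Klre1 (chr6:129559365-129585828) and Klrd1 (chr6:129588092-129598775) are on the plus strand, and Klrk1 (chr6:129610323-129623903), Klrc2 (chr6:129649602-129660737) and Klrc1 (chr6:129666015-129682852) follow on the minus strand. Klrb1c (chr6:128778485-128788641) and Klrg1 (chr6:122270596-122282833) are on the minus strand elsewhere on the chromosome. Fcer1g is at chr1:171229572-171234349, minus strand. Tyrobp (chr7:30413782-30417582, plus strand) and Hcst (chr7:30417712-30419854, minus strand) are neighbours on opposite strands with 129 bases between them. No member had exon overlap with another gene on its own strand. Some transcripts resemble each other closely: 40.6% of the 47-base stretches of Klrc1 transcripts, the length of a read, also occurred in other genes, mostly in Klrc2, against 17% for Klrc2, 17.5% for Klrb1c and 0.449% for Klre1. The counts of Klrc1, Klrc2 and Klrb1c are therefore uncertain, while the other 6 members shared none. For Klrc2 the share was taken over 5991 stretches of all its transcripts, while the exons used for its level per kilobase total 782 bases. The 17% therefore does not bound the uncertainty of its counts.

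The libraries held between 37547651 and 46966318 reads on genes. Dnmt3a had 650.4 to 2007 normalized counts in the KO libraries and 3542 to 5171 in the WT libraries. Coreceptor transcripts followed the sort with an exception to keep in view: Cd8a stood at 3771 normalized counts in KO CD4+ animal 1, against 78.3 to 227 in the other 3 KO CD4+ libraries and 45783 to 68740.3 in KO CD8+ cells. WT CD4+ libraries had 99.1 to 586 for Cd8a, with animal 5 the highest. The library of KO DP animal 3 also stood apart. It had reads on 11783 genes, against 13203 to 14198 in the other DP libraries, and its chi-square per degree of freedom against each of them was 322 to 458, while no other pair within a group exceeded 157. Cd4 was at 302 to 458 in KO CD8+ and 9.88 to 79.6 in WT CD8+ libraries, and at 8758 to 15351 in KO DP cells. Ncr1, which encodes NKp46 and defines NK cells, was listed at 0 in all 8 CD4+ libraries and reached at most 6.72 in CD8+ and 12.9 in DP libraries. In sorted bulk cells, a change in the number of cells that carry a transcript and a change in RNA per cell cannot be told apart.

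**Figure D1:**
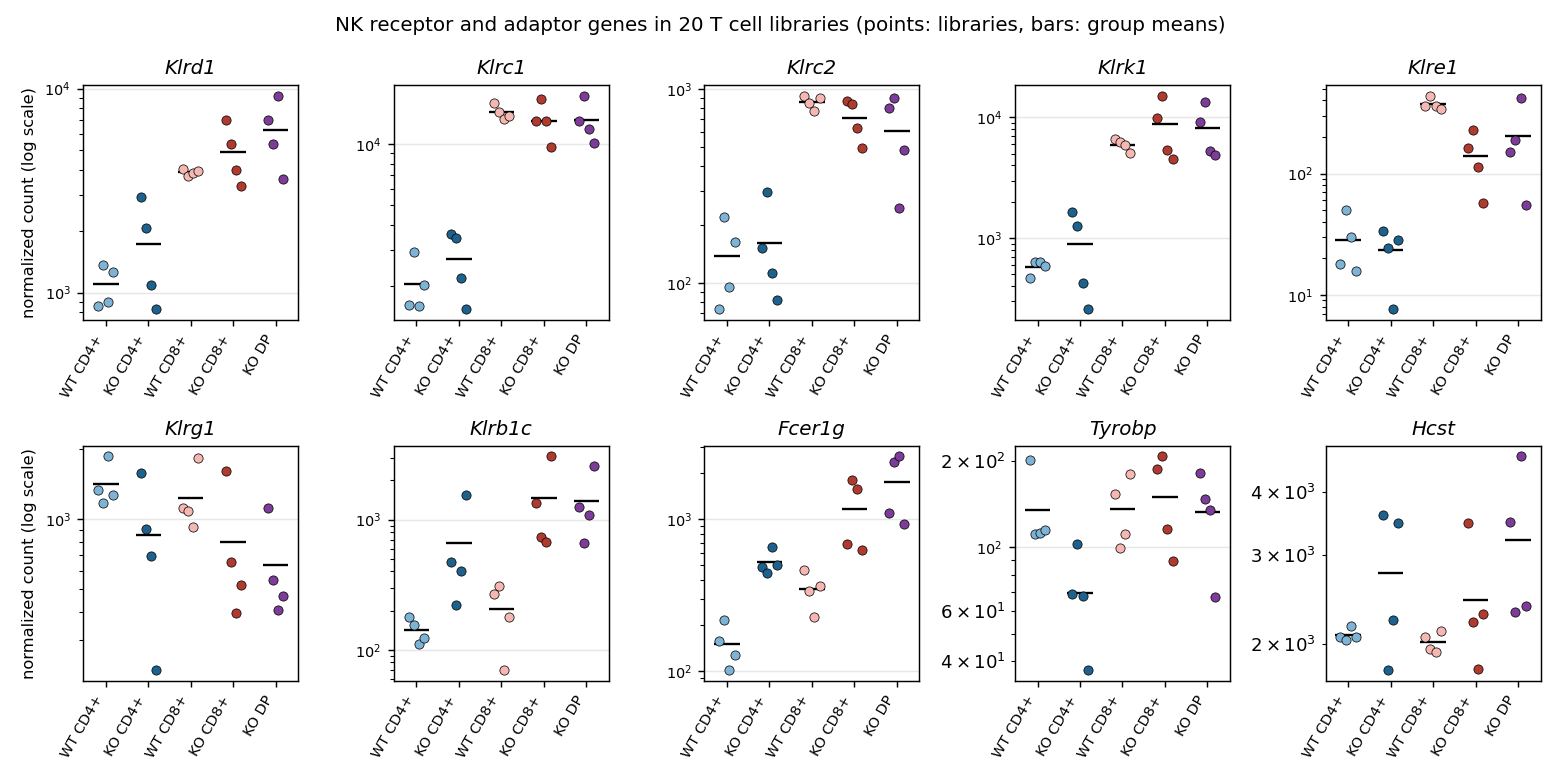
Normalized counts (log axis) of the 10 genes, 1 panel per gene, for 4 libraries in each of the 5 groups; points are libraries and bars group means. The CD94, NKG2 and Klre1 panels show high CD8+ and DP groups, while Klrb1c and Fcer1g are high in the KO groups.

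Transcripts of CD94 and its NKG2 partners were present in both subsets and higher in CD8+ than in CD4+ cells. In WT cells, Klrd1 had 862, 1372, 902 and 1259.9 normalized counts in CD4+ libraries of animals 2, 3, 5 and 6, and 4059, 3715, 3837 and 3951 in their CD8+ libraries. Klrc1 had 1617, 2939.8, 1593 and 2017 in CD4+ and 15977, 14384, 13298 and 13765 in CD8+ cells. For both genes every CD8+ library was above every CD4+ library. The log2 difference, WT CD8+ minus WT CD4+, was 1.85 ± 0.13 for Klrd1 (SE, n = 4 per group, limma adjusted p = 8.54e-08) and 2.86 ± 0.15 for Klrc1 (limma adjusted p = 8.58e-09). Klrc2, the activating partner, was higher in CD8+ cells by 2.76 ± 0.26 (limma adjusted p = 2.2e-06).

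Per kilobase of exon, Klrc1 averaged 7236 normalized counts in WT CD8+ cells, Klrd1 4488 and Klrc2 1101, so that the inhibitory chain was the more abundant NKG2 transcript. The Klrc1 to Klrc2 ratio of normalized counts was 16.7 ± 0.98 (SD, n = 4) in WT CD8+, 18.6 ± 2.49 in KO CD8+, 16.1 ± 4.35 in WT CD4+ and 18.4 ± 5.06 in KO CD4+ cells. These ratios overlapped between genotypes, and they and the levels per kilobase carry the uncertainty from shared stretches given above. In KO DP cells the ratio ran from 16.3 to 48.6, the upper end coming from animal 3, where Klrc2 was lowest at 245.

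Klrk1, encoding NKG2D, was present in both subsets at very different levels. WT CD4+ libraries held 464 to 635 normalized counts and WT CD8+ libraries 5122 to 6586, a 10.3-fold difference on the log2(count + 1) scale (log2 3.36 ± 0.10, limma adjusted p = 8.84e-11). Klre1, whose product pairs with the KLRI chains, rose from 15.6 to 50.4 in WT CD4+ up to 337 to 439 in WT CD8+ libraries (log2 3.81 ± 0.31, limma adjusted p = 4.75e-07). Fcer1g was the 1 adaptor with a subset difference in WT cells, at 102 to 216 in CD4+ and 227 to 461 in CD8+ libraries (log2 1.21 ± 0.24, limma adjusted p = 0.00118). In all, 6 of the 10 genes were higher in WT CD8+ cells and none lower, in a comparison where 22.2% of the 12559 genes tested were higher and 22.3% lower. The libraries of these 6 did not overlap between subsets, nor did those of 20.8% of all genes in the same direction. Klrg1, Klrb1c, Tyrobp and Hcst did not pass: their 95% intervals were -0.62 to 0.18, -0.43 to 1.16, -0.51 to 0.55 and -0.16 to 0.07. Klrb1c passed without WT CD8+ animal 5 (log2 0.81, limma adjusted p = 0.0127) and Klrg1 without WT CD8+ animal 6 (log2 -0.42, limma adjusted p = 0.0289). Hcst was nearly level, at 2038 to 2175 in CD4+ and 1933 to 2119.9 in CD8+ cells.

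The same receptors were higher in CD8+ than in CD4+ cells in the absence of Dnmt3a. In KO animals 1 to 4, Klrk1 was at 1662, 1267, 424 and 258 in CD4+ and at 9939, 15169.8, 5418 and 4518 in CD8+ cells. Klrc1 was at 3618, 3459, 2182 and 1535 in CD4+ and at 12927, 16607, 12903 and 9619 in CD8+ cells. The groups did not overlap for either gene, although the KO CD4+ levels spanned 6.44-fold for Klrk1. The log2 differences were 3.49 ± 0.59 for Klrk1 (limma adjusted p = 0.0123), 2.33 ± 0.27 for Klrc1 (limma adjusted p = 0.00265), 2.27 ± 0.37 for Klrc2 (limma adjusted p = 0.0107), 2.52 ± 0.57 for Klre1 (limma adjusted p = 0.0396) and 1.63 ± 0.38 for Klrd1 (limma adjusted p = 0.0458). These 5 genes were higher, and none lower, where 1.48% of 12189 genes were called higher and 2.73% lower. Their libraries did not overlap between subsets, which held for 3.97% of all genes in this direction. Both of the last calls were fragile in this fit, which did not pair libraries by animal number. Klrd1 lost its call on leaving out any library but KO CD4+ animal 1 (limma adjusted p from 0.0527 to 0.136), and Klre1 on leaving out any but KO CD8+ animal 4 (limma adjusted p from 0.0596 to 0.121). Without KO CD4+ animal 1, the CD4+ library with the most Cd8a, 4 genes were called and the Klrk1 difference was 3.91. With the animal number as a block, 8 genes were called, and all 5 above, Klrd1 and Klre1 included, kept their calls. The block added Klrb1c (log2 1.25, limma adjusted p = 0.000862), Fcer1g (log2 1.03, limma adjusted p = 0.0178) and Tyrobp (log2 1.11, limma adjusted p = 0.0135). The blocked fit called 2305 of all genes, against 514 without the block, so the shares above do not apply to it.

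KO DP cells carry both coreceptors, and each gene was compared with both single-positive groups. Against KO CD4+ cells, 4 of the 10 genes were higher, Klrk1 by 3.43 ± 0.57 (limma adjusted p = 0.0171), Klrc1 by 2.33 ± 0.28 (limma adjusted p = 0.00394), Klrd1 by 1.96 ± 0.40 (limma adjusted p = 0.0396) and Fcer1g by 1.62 ± 0.33 on the log2 scale (limma adjusted p = 0.0385), where 0.682% of 12175 genes were higher and 1.26% lower. Libraries did not overlap for these 4 genes and Klre1, and for 4.44% of all genes in this direction. Fcer1g in KO DP cells of animals 1 to 4 had 1102, 2365, 2590.4 and 930 normalized counts, all above the 443 to 658 of KO CD4+ cells. The Fcer1g call was lost on leaving out any KO CD4+ library or KO DP animals 2 or 3 (limma adjusted p from 0.0587 to 0.113), and the Klrd1 call on leaving out any library but KO CD4+ animal 1 or KO DP animal 4 (limma adjusted p from 0.0696 to 0.14). Klrk1 lost its call without KO CD4+ animal 3 or KO DP animal 2 (limma adjusted p = 0.0641 and 0.051). Klre1 was called without KO DP animal 4 (log2 3.4, limma adjusted p = 0.0363) and Klrc2 without KO DP animal 3 (log2 2.29, limma adjusted p = 0.0324). Without KO DP animal 3, the library that stood apart, 3 members were called: Klrk1 (log2 3.6), Klrc1 (log2 2.36) and Klrc2, while Klrd1 was at 1.75 and Fcer1g at 1.38. The fits that left out a library had no block. With the block by animal, 6 genes were called, adding Klrc2 (log2 1.91, limma adjusted p = 0.0117) and Klrb1c (log2 1.29, limma adjusted p = 0.00921). Klrk1, Klrc1, Klrd1 and Fcer1g kept their calls in it. The blocked fit called 860 of all genes, against 237 without the block, so the shares above do not apply to it.

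Against KO CD8+ cells, no member passed the limma test, and none had an unadjusted p under 0.05 or passed in edgeR, DESeq2 or the blocked fit. Only 0.00823% of 12153 genes passed. The narrowest interval was that of Klrc1, whose log2 difference, DP minus CD8+, lay between -0.46 and 0.46. Without KO DP animal 3, which was the highest DP library for Klrd1, Klre1, Fcer1g and Hcst and the lowest for Klrc2, none was called either, and the differences were 0.12 for Klrd1, -0.1 for Klre1, 0.35 for Fcer1g, 0.18 for Hcst and 0.02 for Klrc2. Wider intervals over all libraries included -1 to 0.89 for Klrk1, -0.35 to 1.02 for Klrd1, -0.4 to 1.58 for Fcer1g and -1.11 to 1.2 for Klrb1c.

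**Figure D2:**
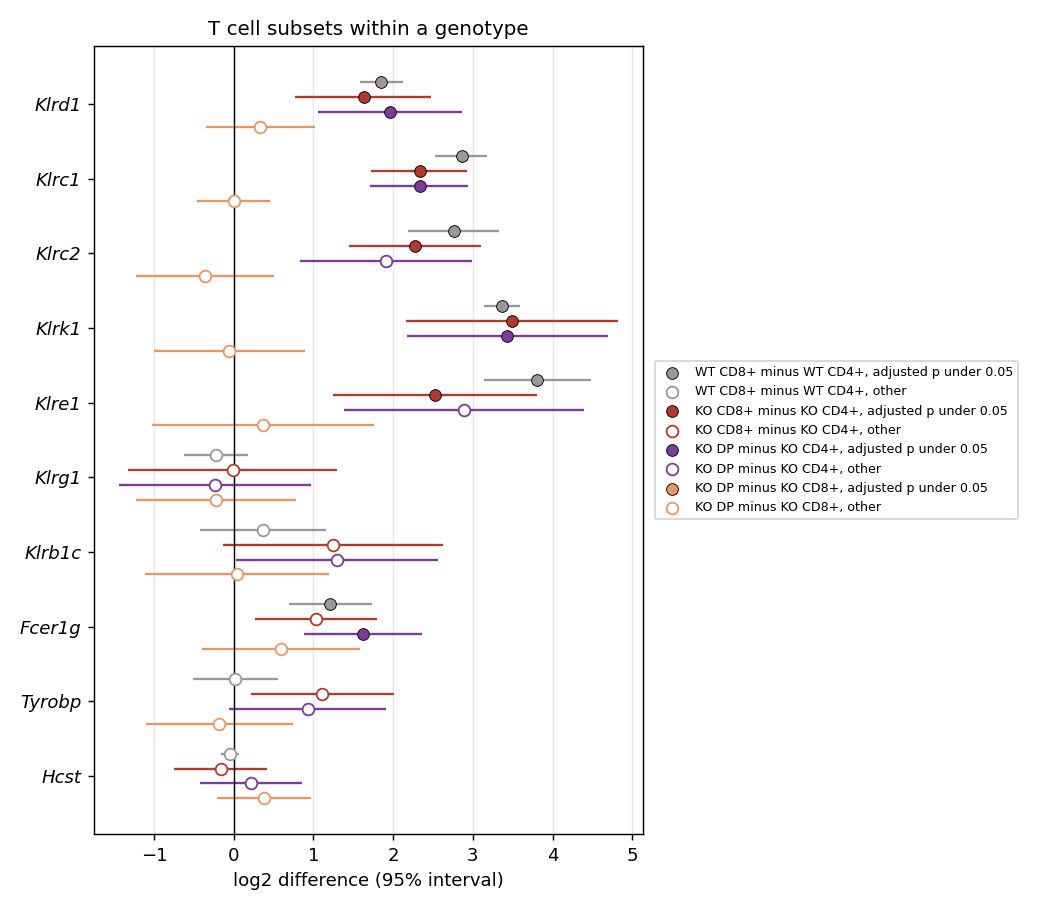
Log2 differences of the 10 genes between T cell subsets with 95% intervals; filled points have a limma adjusted p under 0.05. The points of Klrd1, Klrc1 and Klrk1 are filled in all 3 comparisons with CD4+ cells, those of Klrc2 and Klre1 in WT and KO CD8+ but not in KO DP cells, and no KO DP minus KO CD8+ point is filled.

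Fcer1g and Klrb1c were higher in KO than WT cells of both subsets, and Klre1 was lower in KO CD8+ cells. Of the 10 genes, 2 passed in KO against WT CD4+ cells, both higher, where 8.59% of 12391 genes were higher and 9.77% lower. In CD8+ cells 3 passed, with 2 higher and 1 lower, where 12.6% of 12383 genes were higher and 12.5% lower. The median log2 difference of the 10 was 0.31 in CD4+ and 0.17 in CD8+ cells, against -0.05 and -0.04 for all genes.

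Fcer1g encodes FcRγ, a chain that resembles CD3ζ and can stand in for it in receptor complexes. It had 158, 216, 102 and 129 normalized counts in WT CD4+ libraries of animals 2, 3, 5 and 6, and 487, 443, 658 and 497 in KO CD4+ libraries of animals 1 to 4. In CD8+ cells it had 461, 337, 227 and 366 in WT and 688, 1816, 1575 and 623 in KO libraries. Every KO library was above every WT library of its subset, as held for 12.3% (CD4+) and 15.2% (CD8+) of all genes tested. The difference was 3.52-fold in CD4+ (log2 1.82 ± 0.24, limma adjusted p = 0.00303) and 3.12-fold in CD8+ cells (log2 1.64 ± 0.37, limma adjusted p = 0.0128). It stayed past the threshold on leaving out any 1 library, with log2 differences of 1.65 to 2.01 and 1.38 to 1.89. The Fcer1g levels ordered the groups as KO DP, KO CD8+, KO CD4+, WT CD8+ and WT CD4+ by mean, and of these neighbours the WT groups alone did not overlap.

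Fcer1g is also abundant in myeloid cells, mast cells and basophils, so the levels of their markers are given beside it. Of 17 myeloid markers 16 were in the table, and their summed normalized count was 4645 to 5943 in WT CD4+ and 1862 to 4277 in KO CD4+ libraries. In CD8+ libraries the sum was 5005 to 8412 in WT and 3212 to 6658 in KO cells, and it was 3119 to 8415 in KO DP cells. Of the 15 tested, 5 fell in KO CD4+ and 3 in KO CD8+ cells, none rose and the others did not pass, Spi1 (PU.1) falling by 1.66 and 1.15 on the log2 scale. All but Ms4a7 were above a mean of 3 in KO cells. Between WT subsets, 2 of the 16 were higher in CD8+ cells, Itgam (log2 2.42) and Cd68 (log2 1.5), and 1 was lower. Between KO subsets the same 2 of 14 tested were higher (log2 2.34 and 1.5) and 0 lower. The sums may therefore not measure myeloid cells alone. The 6 mast cell and basophil markers in the table summed to 182 to 272 in WT CD4+ and 62.6 to 88 in KO CD4+ libraries, and to 272 to 329.7 in WT CD8+ and 38.1 to 257 in KO CD8+ libraries, with Ms4a2, Fcer1a and Mcpt8 at a mean of 3 or less in KO CD4+ cells. Of the 6, 1 was tested in CD4+ and 3 in CD8+ cells, and 1 fell in each. In each KO subset the library highest for Fcer1g also had the highest myeloid sum. KO CD4+ animal 3, the highest there for Fcer1g, had a sum of 4277 against 1862 to 2179 in the other 3. In KO CD8+ cells animals 2 and 3, the highest for Fcer1g, had sums of 6658 and 6052 against 4545 and 3212. In KO DP cells animal 3, again the highest, had 8415 against 3119 to 4635, and animal 2, the next for Fcer1g, had 4578. The part of myeloid cells in the Fcer1g differences was not tested.

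**Figure D3:**
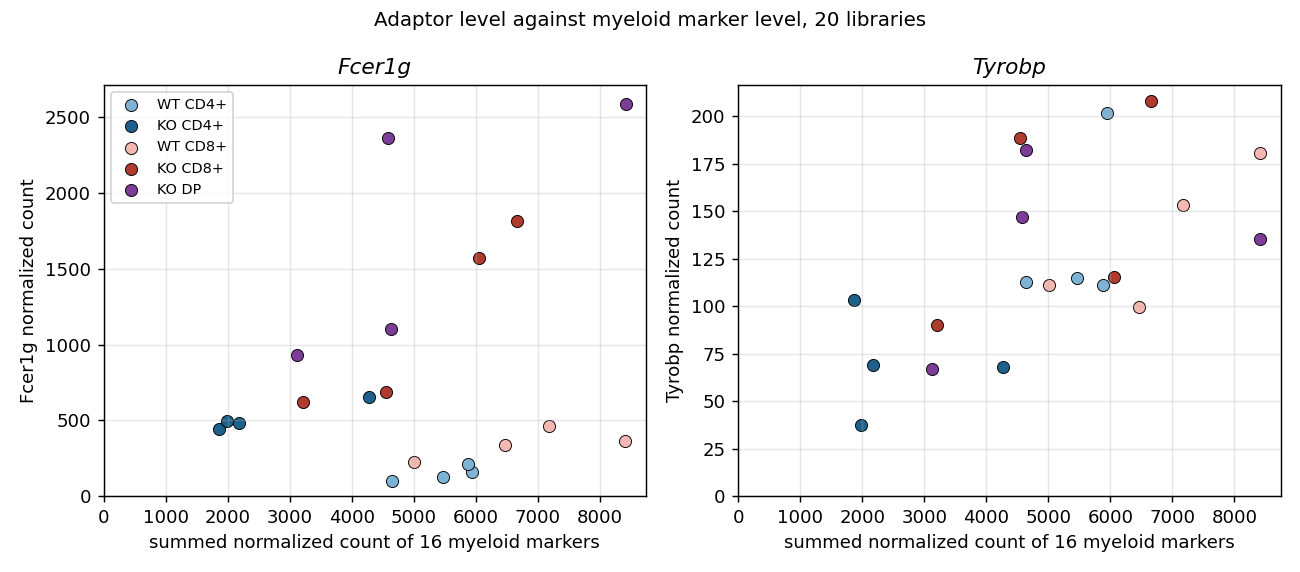
Normalized counts of Fcer1g (left) and Tyrobp (right) against the summed normalized count of 16 myeloid markers, 1 point per library, colored by group. KO CD4+ points lie left of and above the WT CD4+ points for Fcer1g, at 443 to 658 against 102 to 216.

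Tyrobp, the gene of the DAP12 adaptor, did not follow Fcer1g. It had 202, 111, 113 and 115 normalized counts in WT CD4+ and 68.8, 103, 67.8 and 37.3 in KO CD4+ libraries. All KO values were below all WT values, with a log2 difference of -0.99 ± 0.35 that missed the threshold (limma adjusted p = 0.0705). DESeq2 put it past the threshold (log2 -0.94, adjusted p = 0.0472), as did leaving out KO CD4+ animal 2 (log2 -1.21, limma adjusted p = 0.0335). Groups that do not overlap in this direction made up 13.3% of all genes. The myeloid markers above moved with this difference, and their part in it was not tested. In CD8+ cells Tyrobp had 154, 99.8, 111 and 181 in WT and 188, 208, 116 and 90 in KO libraries, which overlapped (95% interval of the log2 difference -0.62 to 0.82). As a description, the Fcer1g to Tyrobp ratio was 1.19 ± 0.522 (SD, n = 4) in WT CD4+ and 8.6 ± 3.85 in KO CD4+ cells, 2.61 ± 0.684 in WT CD8+ and 8.24 ± 4.17 in KO CD8+ cells, and 13.8 ± 5.6 in KO DP cells.

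Hcst, the partner adaptor of NKG2D, was the most abundant adaptor per kilobase of exon, averaging 4567 to 7283 across the groups against 229.6 to 2655 for Fcer1g and 120.5 to 262 for Tyrobp. KO CD4+ libraries had 3594, 1778, 2227 and 3466 normalized counts and WT CD4+ libraries 2038 to 2175. The groups overlapped, and the log2 difference of 0.35 (95% interval -0.09 to 0.79) did not pass. Without KO CD4+ animal 2 it was 0.54 (limma adjusted p = 0.0316).

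Klrb1c, encoding NK1.1, had 177, 156, 111 and 124 normalized counts in WT CD4+ and 474, 219.9, 401 and 1547 in KO CD4+ libraries. In CD8+ cells it had 268, 312, 70.1 and 179 in WT and 1355, 741, 672 and 3066 in KO libraries. No KO library fell within the WT range of its subset, and KO animal 4 was by far the highest in both. The difference was 3.6-fold in CD4+ (log2 1.85 ± 0.48, limma adjusted p = 0.028) and 6.63-fold in CD8+ cells (log2 2.73 ± 0.56, limma adjusted p = 0.00898). In CD8+ cells the call held on leaving out any 1 library (log2 2.28 to 3.01), with 2.28 without animal 4. In CD4+ cells it was lost without KO animal 1 or any WT library (limma adjusted p from 0.0529 to 0.0835), and it was 1.31 without KO animal 4. Its close relative Klrb1b did not pass in CD8+ cells, where it averaged 1015 ± 171 (SD, n = 4) in WT and 612 ± 399 in KO cells. Of the NK cell markers tested, 3 in CD4+ and 6 in CD8+ cells, none rose with Klrb1c and 1 fell in each subset. These were Klra3 in CD4+ cells (log2 -0.91) and Eomes in CD8+ cells (log2 -1.19). The 7 in the table summed to 778 to 1531 in WT CD4+ and 261 to 894 in KO CD4+ libraries, and to 4346 to 5381 in WT CD8+ and 1895 to 3257 in KO CD8+ libraries. Eomes, also a factor of memory CD8+ cells, made up most of the CD8+ sums, so these sums do not measure NK cells alone.

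Klre1 was the 1 receptor that fell. It had 361, 439, 359 and 337 normalized counts in WT CD8+ libraries and 162, 227, 112 and 56.8 in KO CD8+ libraries, every KO value being below every WT value, as held for 15.5% of genes. The log2 difference was -1.58 ± 0.37 (limma adjusted p = 0.0149), a level 2.99-fold lower in KO cells, and the joint fit of all 20 libraries did not call it (limma adjusted p = 0.0617). In CD4+ cells, where few reads fell on the gene, KO libraries had 33.5, 24.5, 7.64 and 28.6 and WT libraries 15.6 to 50.4. That difference did not pass (95% interval -1.57 to 0.99).

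The CD94, NKG2A, NKG2C and NKG2D transcripts showed no difference by genotype that passed the test. For Klrc1 in CD8+ cells the log2 difference lay between -0.49 and 0.16, and for Klrc2 between -0.71 and 0.08. Klrd1 ranged from 3326 to 7024 in KO CD8+ and from 3715 to 4059 in WT CD8+ cells (95% interval -0.16 to 0.72). Klrk1 ranged from 4518 to 15169.8 in KO CD8+ and from 5122 to 6586 in WT CD8+ cells (-0.34 to 1.13). In CD4+ cells the intervals were wider, at -0.25 to 0.98 for Klrc1, -0.8 to 1.16 for Klrc2, -0.27 to 1.28 for Klrd1 and -0.83 to 1.38 for Klrk1. The Klrk1 difference in CD4+ cells turned from 0.27 to -0.15 without KO animal 1, the CD4+ library with the most Cd8a.

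Klrg1, the receptor of terminal effector cells, had 1580.2, 907, 693 and 224 normalized counts in KO CD4+ libraries against 1178 to 1867 in WT CD4+ libraries. In CD8+ cells it had 1613, 654, 395 and 518 in KO and 1113, 1081, 923 and 1838 in WT libraries. Animal 1 stood within the WT range in both subsets and the other KO animals below it. Neither difference passed, at -1.01 ± 0.47 (limma adjusted p = 0.146) in CD4+ and -0.81 ± 0.40 (limma adjusted p = 0.159) in CD8+ cells. Without animal 1 the CD8+ difference was -1.22 (limma adjusted p = 0.00779) and the CD4+ difference -1.41 (limma adjusted p = 0.0554).

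**Figure D4:**
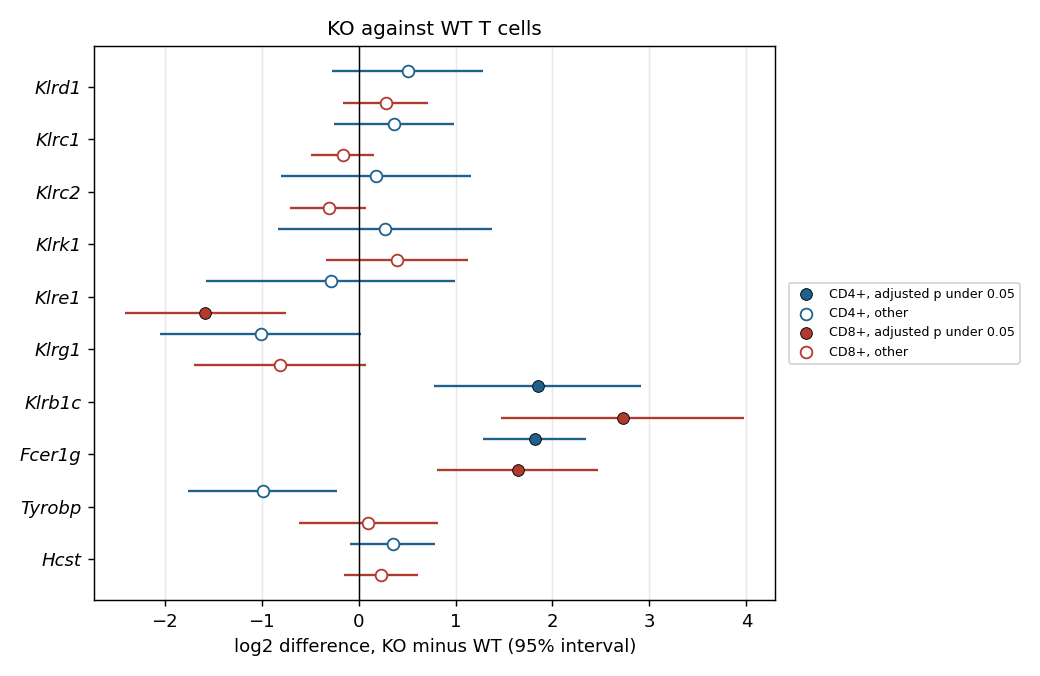
Log2 differences, KO minus WT, of the 10 genes in CD4+ and CD8+ cells with 95% intervals; filled points have a limma adjusted p under 0.05. Fcer1g and Klrb1c lie right of 0 in both subsets (1.64 to 2.73), and Klre1 lies left of 0 in CD8+ cells.

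Whether the genotype differences themselves differed between CD8+ and CD4+ cells was tested as an interaction over 16 libraries. No member passed in limma, edgeR or DESeq2, where 0.0161% of 12446 genes passed. One member, Tyrobp, had an unadjusted limma p under 0.05 (log2 1.09 ± 0.49, limma adjusted p = 0.747). The Klrb1c interaction was 0.88 with a 95% interval of -0.84 to 2.6, and that of Klre1 -1.29 with -2.74 to 0.16.

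The KO libraries of a subset differed more among themselves than the WT libraries. The SD of log2 values was larger in KO than WT cells for 9 of the 10 genes in CD4+ and for 10 in CD8+ cells, as it was for 81% and 89.1% of all genes. The median SD of the members was 0.81 in KO CD4+, 0.37 in WT CD4+, 0.68 in KO CD8+ and 0.16 in WT CD8+ cells, against 0.25, 0.13, 0.27 and 0.1 for all genes. For some genes an animal kept its place across subsets. Animal 4 was lowest for Klrd1, Klrk1, Klrc1 and Tyrobp in all 3 of its KO subsets, with Klrk1 at 258 in CD4+, 4518 in CD8+ and 4892 in DP cells. The same animal was highest for Klrb1c in all 3, at 1547, 3066 and 2602. Animal 1 was highest for Klrg1 in each, at 1580.2, 1613 and 1120. An animal that was highest in all 3 subsets was found for these 2 of the 10 genes and for 29.5% of 12183 genes, and an animal that was lowest in all 3 for 4 of the 10 and for 31.2%.

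**Figure D5:**
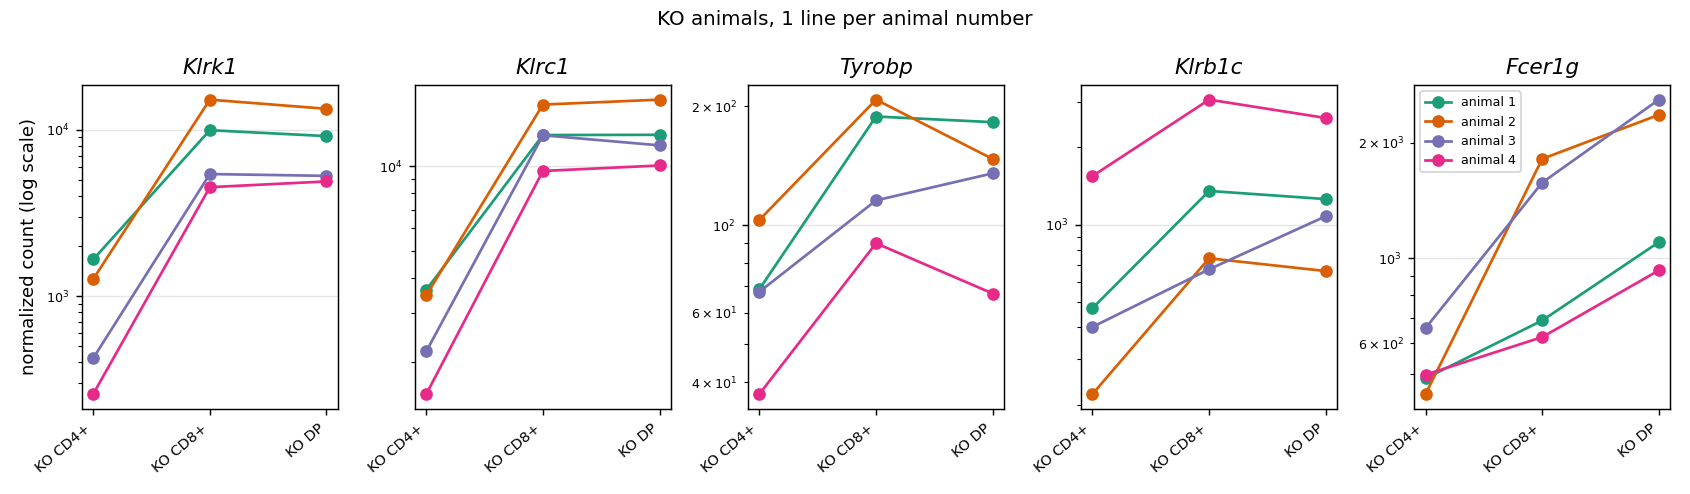
Normalized counts (log axis) of 5 genes in KO CD4+, KO CD8+ and KO DP libraries, with 1 line per animal number. Animal 4 is lowest for Klrk1, Klrc1 and Tyrobp and highest for Klrb1c in each subset.

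Over the 12 KO libraries, which share 4 animals, log2 levels were compared after subtracting the mean of each group. Within groups, Klrk1 and Klrc1 went together (Pearson r = 0.96), and Klrb1c ran against Klrc1 (r = -0.83), Tyrobp (r = -0.78) and Klrk1 (r = -0.66). Without that subtraction, over all 20 libraries, Klrb1c had r = 0.32 with Klrc1, -0.22 with Tyrobp and 0.34 with Klrk1. Over all 20 libraries, the non-member genes most like Klrk1 were Klra7 (r = 0.974), a Ly49 receptor, and Itgax (r = 0.971), which encodes CD11c. Those most like Klre1 were Fasl (r = 0.932), the Fas ligand, and Nkg7 (r = 0.928), a protein of cytotoxic granules. Klrc1 was most like Bend4 (r = 0.97) and Pald1 (r = 0.964), Klrc2 most like Itgax (r = 0.955) and Gnptab (r = 0.953), and Klrd1 most like Dnajb6 (r = 0.922) and Pltp (r = 0.919). These profiles mainly separate CD8+ and DP from CD4+ libraries. Klrb1c was most like H6pd (r = 0.903) and Emilin1 (r = 0.898), whose mean was 46.8 in WT and 419 in KO CD4+, and 87.2 in WT and 563 in KO CD8+ cells. Fcer1g was most like Sumo3 (r = 0.923) and Fnta (r = 0.919), Hcst most like Ubxn6 (r = 0.935) and Smim14 (r = 0.929), Klrg1 most like Amigo3 (r = 0.874) and Ifi203 (r = 0.865), and Tyrobp most like Dcaf17 (r = 0.799) and Fcgr4 (r = 0.772), an Fc receptor of myeloid cells. Each is a description over libraries that share animals and groups.

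Further lists were read against the genes called among all tested, which were 8.59% higher and 9.77% lower in CD4+ and 12.6% higher and 12.5% lower in CD8+ cells. The lists are small and their counts were not tested, so the genes below are given for their own values. Of 22 other receptors of the NK gene complex, 7 were tested in CD4+ cells, of which none rose and 2 fell: Klra3, which encodes Ly49C, by 0.91 (limma adjusted p = 0.0495) and Klrb1f, a relative of Klrb1c, by 0.72 on the log2 scale (limma adjusted p = 0.0202). Of 11 tested in CD8+ cells none passed. The median log2 difference was -0.91 in CD4+ and -0.24 in CD8+ cells, against -0.05 and -0.04 for all genes. Among 14 tested receptors of NK type outside the complex, 1 rose and 2 fell in CD4+ and 2 rose and 2 fell in CD8+ cells, with medians of -0.13 and -0.28. Cd226 (DNAM-1), an activating receptor for nectin-like ligands, fell by 1.09 in CD4+ and 0.84 in CD8+ cells (limma adjusted p = 0.00394 and 0.0127). Tigit, which is inhibitory, rose by 0.55 in CD4+ cells (limma adjusted p = 0.0458) and was at 0.25 in CD8+ cells without passing (limma adjusted p = 0.157). Cd96 rose by 0.53 in CD8+ cells (limma adjusted p = 0.0118) and was at 0.13 in CD4+ cells without passing (limma adjusted p = 0.579). Crtam rose by 0.64 in CD8+ cells (limma adjusted p = 0.0172). The inhibitory Lilrb4a fell by 1.05 and 1.76 (limma adjusted p = 0.00303 and 0.000173).

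T cells also transcribed ligands of these receptors. Of 11 tested, none rose, while 3 fell in CD4+ and 2 in CD8+ cells, with medians of -0.33 and -0.14. Ulbp1, encoding the NKG2D ligand MULT1, averaged 622 ± 147 (SD, n = 4) in WT and 291 ± 123 in KO CD4+ cells, and 787 ± 82.4 in WT and 325 ± 37.3 in KO CD8+ cells. It fell by 1.18 and 1.27 on the log2 scale (limma adjusted p = 0.0324 and 0.000696). Clec2d, a ligand of NKR-P1 receptors, fell by 0.77 and 0.82 (limma adjusted p = 0.00165 and 0.00147), and Clec2i fell by 0.45 in CD4+ cells (limma adjusted p = 0.0194). H2-T23, the Qa-1 gene read by CD94/NKG2, averaged 29689 in WT and 25661 in KO CD4+ cells and did not pass (log2 -0.22, limma adjusted p = 0.139), nor in CD8+ cells (log2 -0.14, limma adjusted p = 0.19). Raet1e was at or near 0, with a highest value of 5.35.

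Of 28 signalling genes behind the adaptors that were tested, 3 rose and 2 fell in CD4+, and 5 rose and 2 fell in CD8+ cells. Their median log2 difference was -0.02 and 0.05, against -0.05 and -0.04 for all genes. Pik3r1 (p85α), a regulatory subunit of phosphoinositide 3-kinase, rose by 0.60 and 0.73 (limma adjusted p = 0.0152 and 0.00614), and the catalytic Pik3cg rose by 0.36 and 0.33 (limma adjusted p = 0.0306 and 0.0337). Lat2, an adaptor of the LAT family, rose by 0.99 in CD4+ cells (limma adjusted p = 0.0228), and Cd247 (CD3ζ) rose by 0.36 in CD8+ cells (limma adjusted p = 0.00722). Syk, a kinase that binds ITAM motifs, averaged 1377 ± 201 (SD, n = 4) in WT and 401 ± 227 in KO CD8+ cells and fell by 2.01 (limma adjusted p = 0.0114), with -0.78 in CD4+ cells (limma adjusted p = 0.195). Zap70, the ITAM kinase of T cells, did not pass in either subset (log2 -0.09 and -0.11). Sh2d2a fell by 0.48 in CD8+ cells (limma adjusted p = 0.00358), and Lyn and Vav2 fell by 1.10 and 0.44 in CD4+ cells (limma adjusted p = 0.0307 and 0.0337). Syk and Lyn are also transcribed in myeloid cells, whose markers were lower in KO libraries as given above, and the part of such cells was not tested.

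Among 19 tested transcription factors and cytokine receptors of NK-like differentiation, 1 rose and 3 fell in CD4+ cells, and 2 rose and 5 fell in CD8+ cells, with medians of -0.11 and -0.19. Eomes, a T-box factor of memory CD8+ and NK cells, fell by 1.19 in CD8+ cells (limma adjusted p = 0.00248), from 3995 ± 606 to 1769 ± 408 normalized counts (SD, n = 4). In CD4+ cells it was at -1.35 without passing (limma adjusted p = 0.121). Tox fell by 0.96 in CD8+ cells (limma adjusted p = 0.00724) and Il15ra by 0.67 in both subsets (limma adjusted p = 0.0125 and 0.00619). Zeb2 was lower in both subsets, with log2 differences of -1.08 in CD4+ and -0.5 in CD8+ cells (limma adjusted p = 0.0194 and 0.0275). Gata3 fell by 0.28 in CD4+ cells (limma adjusted p = 0.0354). Il2rb, the β chain of the interleukin-2 and interleukin-15 receptors, rose by 0.52 in CD4+ cells (limma adjusted p = 0.0312), and Il12rb2 and Ets1 rose by 0.40 and 0.22 in CD8+ cells (limma adjusted p = 0.0391 and 0.0421). Tbx21 (T-bet) and Bcl11b, whose loss gives T cells NK receptors, did not pass, with log2 differences of -0.28 and -0.16 in CD4+ and -0.37 and 0.03 in CD8+ cells.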

How the data were processed

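Poly(A) RNA of sorted splenic donor T cells was sequenced as stranded 47-base read pairs. The authors aligned reads to mm10 with STAR (version 2.7.2b in the submitters' processing notes), counted them per UCSC gene with regard to strand, and deposited signal, that is, counts divided by DESeq2 size factors, for 17101 genes and 20 libraries. Whole reads were recovered for 100% of the deposited values (tolerance 1e-06). Libraries were grouped by genotype and subset in their titles. Nothing in the labels says whether a library is 1 recipient or a pool, so p-values measure the spread between libraries. No pair of libraries within a group agreed within sampling noise (chi-square per degree of freedom of at least 10.6). Pairs across groups were not compared in this way.

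Comparisons used limma 3.58.1 in R 4.3.3 (eBayes with trend, 2-sided) on log2(normalized count + 1), which understates changes of low genes, restricted to genes averaging 10 or more across the libraries of a comparison. P values were adjusted by Benjamini-Hochberg over all genes tested, with a threshold of 0.05. Values after ± are SE for log2 differences and SD for counts, and folds are on the log2(count + 1) scale. Each library held 37547651 or more reads on genes. Counting error was not separated from the spread between libraries, and it weighs most where a gene has few reads. The procedure was tested on simulated data with the same spread in both groups, unlike the KO and WT libraries here.

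Each result was refitted with edgeR 4.0.16 and DESeq2 1.42.0 on whole reads, with other scalings (quantile, 75th percentile), with a pseudocount of 10, with minimum means of 0 and 50, without trend, jointly over 20 libraries, blocked by number, and omitting single libraries. Numbers were taken as pairing libraries within a genotype because same-numbered libraries deviated together in every pair (r 0.394 to 0.761 in KO, 0.25 to 0.316 in WT cells).

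The members and lists were chosen with earlier results of these data known. Named beside the 10 members are, per list, up to 3 genes that rose and 3 that fell most in each KO against WT comparison, 7 genes set by name (Zap70, Syk, Tbx21, Eomes, Bcl11b, H2-T23, Raet1e), and for each member the 2 genes with the highest Pearson r over 20 libraries (mean of at least 50). Spi1 and Klrb1b were named after their values were seen. Promoter sequences are from RefSeq.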

Additional observations from a re-analysis of the deposited data

Results flagged for a closer look

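Of 50 sets of 4 libraries examined (10 genes in 5 groups), 1 held a library far from the others: Tyrobp in WT CD4+ animal 2 was at 202 normalized counts, while the nearest of the other 3 was at 115. The gap took up a share of 0.957 of the whole range, above Dixon's 95% critical value for 4 samples. Chance alone passes that critical value in about 1 of 20 sets, so 1 flag among 50 sets is no more than chance gives.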

How the results depend on the processing

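With the number as a block, KO against WT libraries share just numbers 2 and 3 (r 0.055 to 0.165), so they share only a number, and 0 members were called in CD4+ and 1 in CD8+ cells. Within KO cells, where numbers pair the libraries, the block gave 8 for KO CD8+ against KO CD4+, as stated above, and changed no call for KO DP against KO CD8+, the WT subsets or the interaction. Without trend, 1 was called for KO against WT CD4+, 1 for KO DP against KO CD4+ and 3 for KO CD8+ against KO CD4+. Leaving out 1 library gave 1 to 4, 1 to 5 and 3 to 4 in these comparisons, and 3 to 4 for KO against WT CD8+. The library behind the 4 in CD4+ cells was KO animal 2. Over all genes, the calls ran from 26 to 3100 across settings for KO against WT CD4+ (2274 as reported), 89 to 3833 for CD8+ (3118), 124 to 1459 for KO DP against KO CD4+ (237), 1 to 3 for KO DP against KO CD8+ (1), 1610 to 6134 for the WT subsets (5592), 299 to 2305 for the KO subsets (514) and 0 to 173 for the interaction (2). The lowest counts of the KO against WT comparisons came from the block, as did the highest of the KO subsets and the interaction.

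Some differences that had not passed turned sign. Klre1 in CD4+ cells was 0.33 under quantile normalization. Hcst was -0.04 in CD4+ and -0.02 in CD8+ cells under the block. For KO DP against KO CD8+, Klrc1 was -0.02 under quantile normalization, -0.01 in edgeR and 0 in DESeq2, and Klrb1c was -0.06 in edgeR and in DESeq2. Klrg1, KO CD8+ against KO CD4+, was 0.07 under quantile normalization. The Klrk1 interaction was -0.02 under quantile normalization, -0.09 in edgeR and -0.08 in DESeq2. The cause was not tested.

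Leaving out 1 library turned 19 differences, none of them called. KO against WT CD4+ ran from -0.17 to 0.44 for Klrc2, -0.52 to 0.16 for Klre1 and -0.15 to 0.74 for Klrk1, and CD8+ from -0.08 to 0.32 for Tyrobp. KO DP against KO CD8+ ran from -0.31 to 0.5 for Klrb1c, -0.14 to 0.13 for Klrc1, -0.6 to 0.02 for Klrc2, -0.1 to 0.88 for Klre1, -0.54 to 0.19 for Klrg1, -0.33 to 0.26 for Klrk1 and -0.4 to 0.11 for Tyrobp. Klrg1 ran from -0.55 to 0.39 for KO CD8+ and -0.77 to 0.16 for KO DP against KO CD4+, and Tyrobp from -0.13 to 0.23 between the WT subsets. Interactions ran from -0.44 to 0.07 for Fcer1g, -0.31 to 0.03 for Hcst, -0.52 to 0.09 for Klrd1, -0.33 to 0.6 for Klrg1 and -0.35 to 0.55 for Klrk1.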
